A study of Oryctolagus cuniculus with 8 samples.

Results

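The miRNAs of the miR-375, miR-205, miR-184, miR-31 and miR-203 families were examined in extracellular vesicles, small membrane-bound particles shed by cells, from the uterus and the oviduct of the rabbit. These are grouped under the name of surface and secretory epithelium, which was not taken from their levels in these vesicles. A row of the deposited table belonged to them if its name, without the prefix ocu, the copy number and the arm suffix, was one of the 5 family names. The rule found 8 rows of the 579 mature names. They are both arms (5p and 3p, from the 2 strands of the hairpin stem) of 4 precursors, ocu-mir-375, ocu-mir-205, ocu-mir-184 and ocu-mir-31. No row matched miR-203, which was not analysed here. The families were chosen by name with earlier results of these libraries known, and miR-184 was added because its level was uneven among the uterine libraries. The difference of miR-184 between the groups and its uterine spread are therefore given as descriptions, with no test. Of the 8 rows, 5 had at least 1 read and 4 passed the filter on low counts, ocu-miR-375-3p, ocu-miR-205-5p, ocu-miR-184-3p and ocu-miR-31-5p, named without the prefix from here on. The arms miR-375-5p, miR-205-3p and miR-184-5p had no read in any library.

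There were 3 uterine libraries, each a pool of 5 animals, and 5 oviductal libraries, each a pool of 3 animals. The uterine library titled replicate 12 has library number 1. The labels do not say whether it joins more than 1 replicate, and it is treated as 1 library. All libraries came from 21 multiparous California x New Zealand white does of the wild type. Cycles were synchronised with the gonadotropin eCG (25 IU), ovulation was induced after 48 h with a GnRH analogue (20 µg), and the tracts were taken at 14 to 15 h. There was thus no untreated or non-ovulating group, and each group is a fluid rather than a cell type. Since 30 animals are counted over all pools, some of the 21 does must have entered more than 1 pool, and the labels do not say which. The pools may thus share animals, and p-values cover only their spread.

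A miRNA is cut from a hairpin precursor, and usually 1 arm is loaded into an Argonaute protein, where its seed (bases 2 to 8) pairs with target mRNAs and lowers their output. In human and mouse, miR-375 is best known from pancreatic islets and other secretory and neuroendocrine epithelia. From the same species, miR-205 is known from basal and stratified epithelium, where it acts with the miR-200 family against the transcription factors ZEB1 and ZEB2. miR-184 is abundant in corneal epithelium and lens, and miR-31 is known from keratinocytes and other epithelia. In the RefSeq annotation of the rabbit assembly mOryCun1.1, MIR375 lay between the coding genes CFAP65 and CRYBA2, MIR184 between ANKRD34C and RASGRF1, and MIR31 between IFNE and MTAP. MIR205 overlapped a long noncoding RNA gene, LOC103350983. The 4 genes are thus not neighbours of each other.

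Depth was 232546 to 479865 miRNA reads in the uterine libraries and 42684 to 569087 in the oviductal libraries, counting 1 row per name. The 2 shallowest were oviductal replicates 2 and 3, where a single read stood for 21.0 and 23.4 CPM (reads per 1000000 miRNA reads of the library). In the others a single read stood for 1.76 to 4.30 CPM. The most abundant miRNA, miR-148a-3p, took 47.6%, 54.4% and 29.2% of the reads in uterine replicates 12, 3 and 4, against 27.1% to 37.0% in the oviductal libraries, and CPM of every other miRNA depend on that share. None of the 5 rows with reads had the same counts as another name in all libraries. Intervals and floors below cover counting error only.

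miR-375-3p was the most abundant of these miRNAs in 7 of the 8 libraries, all but uterine replicate 12, and its CPM were lower in every uterine library than in any oviductal one. Its level was 2520, 5614 and 5128 CPM in uterine replicates 12, 3 and 4, against 7479, 20631, 25841, 15362 and 7027 CPM in oviductal replicates 1 to 5. The lowest was uterine replicate 12 and the highest were the 2 shallow oviductal libraries, while oviductal replicate 5, the lowest of its group, stood 1.25-fold above uterine replicate 3. The oviductal median of 15362 CPM was 6.10-, 2.74- and 3.00-fold above uterine replicates 12, 3 and 4. Counting error was small beside these differences. In uterine replicate 3 the exact 95% binomial interval was 5405 to 5830 CPM, and in oviductal replicate 5 it was 6812 to 7247 CPM. Among all miRNAs of its library miR-375-3p ranked 25th, 21st and 24th in the uterine replicates, and between 12th and 23rd in the oviductal ones.

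The mean level of miR-375-3p was 4421 ± 1664 CPM in the 3 uterine libraries and 15268 ± 8203 CPM in the 5 oviductal ones (SD). In the fit over the 178 miRNAs that passed the filter its log2 fold change, uterine over oviductal, was -1.31 ± 0.50 (SE, edgeR adjusted p = 0.174), which did not pass the threshold of 0.05. In that fit counts are scaled by TMM, which sets libraries on a common level by the bulk of their miRNAs. On the TMM scale uterine replicate 3 stood at 8434 CPM, against 8161 and 6355 CPM in oviductal replicates 1 and 5, so that the groups overlapped. Without miR-148a-3p in the totals the values were 4809, 12300 and 7244 CPM in uterine replicates 12, 3 and 4, against 9841 to 36263 CPM in the oviductal libraries, and overlapped as well. The gap between the groups in plain CPM therefore does not hold under these other totals. CPM of 18 of the 178 miRNAs (10.1%) lay lower in every uterine library than in any oviductal one, and TMM-scaled values of 10 (5.62%).

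Among the oviductal libraries miR-375-3p was higher where depth was lower, from 7027 CPM at 569087 reads to 25841 CPM at 42684 reads. Without oviductal replicates 2 and 3, the shallowest, the log2 fold change was -0.79 (edgeR adjusted p = 0.785). With every library thinned to the 42684 reads of the smallest it was -1.45 (edgeR adjusted p = 0.0814). The part of depth in the result was not tested beyond these values.

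**Figure D1:**
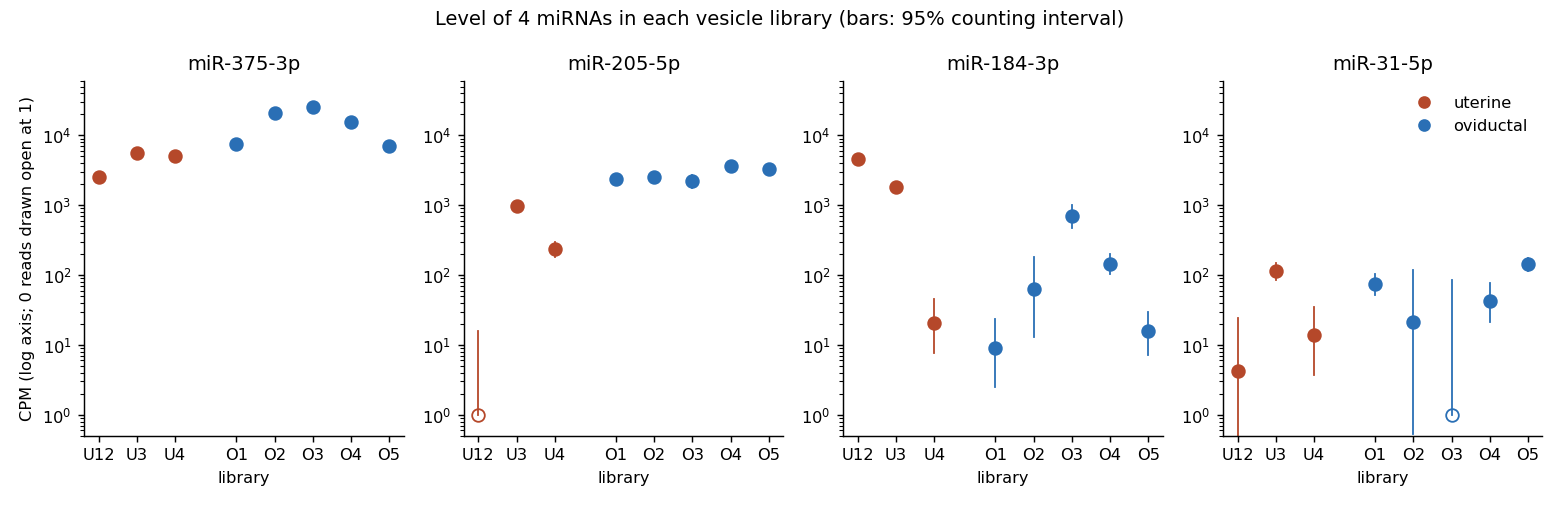
CPM (log axis) of miR-375-3p, miR-205-5p, miR-184-3p and miR-31-5p in each library, with uterine replicates (U) in red and oviductal replicates (O) in blue. Bars are 95% exact binomial counting intervals, and a library with 0 reads is drawn open at 1 CPM. miR-205-5p lies within 2202 to 3629 CPM in the oviductal libraries and is at 0 in uterine replicate 12, where miR-184-3p reaches 4666 CPM.

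miR-205-5p was even among the oviductal libraries and uneven among the uterine ones. It had 0 reads in uterine replicate 12, 969 CPM in uterine replicate 3 and 233 CPM in uterine replicate 4, against 2401, 2542, 2202, 3629 and 3295 CPM in oviductal replicates 1 to 5. Every uterine library was below every oviductal one. The 0 of 232546 reads in uterine replicate 12 allows up to 12.9 CPM by a floor of 3 reads in that library, at least 218-fold lower than the oviductal mean. At the lowest oviductal level, 512 reads would have been counted there. The median oviductal value of 2542 CPM was 2.62-fold above uterine replicate 3 and 10.9-fold above uterine replicate 4.

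The 5 oviductal values of miR-205-5p spanned 0.72 on the scale of log2(CPM + 1), and the 3 uterine values spanned 9.92. For the median of the 178 tested miRNAs these ranges were 2.22 and 2.88. Of the 178, 161 had a wider oviductal range than miR-205-5p and 1 had a wider uterine range. The range of 9.92 is set by the 1 CPM added to the 0 of uterine replicate 12, and from the floor of 12.9 CPM it would be narrower. Rows of few reads also range widely by counting error, whereas miR-205-5p had 94 to 1875 reads in the oviductal libraries. These ranks therefore depend on read number as well as on evenness. Uterine replicate 12 had reads of 160 names, the fewest of the 8 libraries, and 40 of the 178 tested miRNAs had no read there. Of the 57 tested miRNAs with an oviductal mean above 1000 CPM, 3 had no read in uterine replicate 12. They were miR-205-5p, miR-9-5p, a miRNA of the nervous system, and miR-760-3p, at oviductal means of 2814, 1845 and 1136 CPM.

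The mean of miR-205-5p was 401 ± 506 CPM in the 3 uterine libraries and 2814 ± 615 CPM in the 5 oviductal ones (SD). Its log2 fold change was -2.24 ± 1.15 (SE, edgeR adjusted p = 0.426) and did not pass. The SE was more than 2 times that of miR-375-3p. The groups did not overlap on the TMM scale either, but the margin was small, with 1456 CPM in uterine replicate 3 against 1709 CPM in oviductal replicate 3. The same count of non-overlapping miRNAs as above, 10 of 178 (5.62%), is the background for this. The fitted value against a library with no read depends on the method, and limma-voom gave -4.13 (adjusted p = 0.0584).

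Uterine replicate 3 decided whether these miRNAs passed. Of the 3 rows with a test, miR-375-3p, miR-205-5p and miR-31-5p, none passed in edgeR over all 8 libraries, where 1.69% of the 178 miRNAs did (3 of 178, all higher in uterine vesicles). DESeq2 and limma-voom called none of the 3 either. At an unadjusted p under 0.05 there was 1 in edgeR (miR-375-3p), where 28 of 178 miRNAs (15.7%) had such a p. There were 2 in each of the other tools (miR-375-3p and miR-205-5p), beside 32 of 178 (18.0%) in DESeq2 and 37 of 178 (20.8%) in limma-voom. Without uterine replicate 3, miR-375-3p was at -2.004 ± 0.533 and miR-205-5p at -4.80 ± 1.17 (SE, edgeR adjusted p = 0.0128 for both). In that fit of 2 uterine and 5 oviductal libraries, 27 of 200 miRNAs (13.5%) were called, and 15 (7.5%) were called lower. Leaving out any other single library left both miRNAs below the oviductal level and short of the threshold, with log2 fold changes of -1.51 to -1.10 for miR-375-3p and of -2.34 to -1.72 for miR-205-5p.

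**Figure D2:**
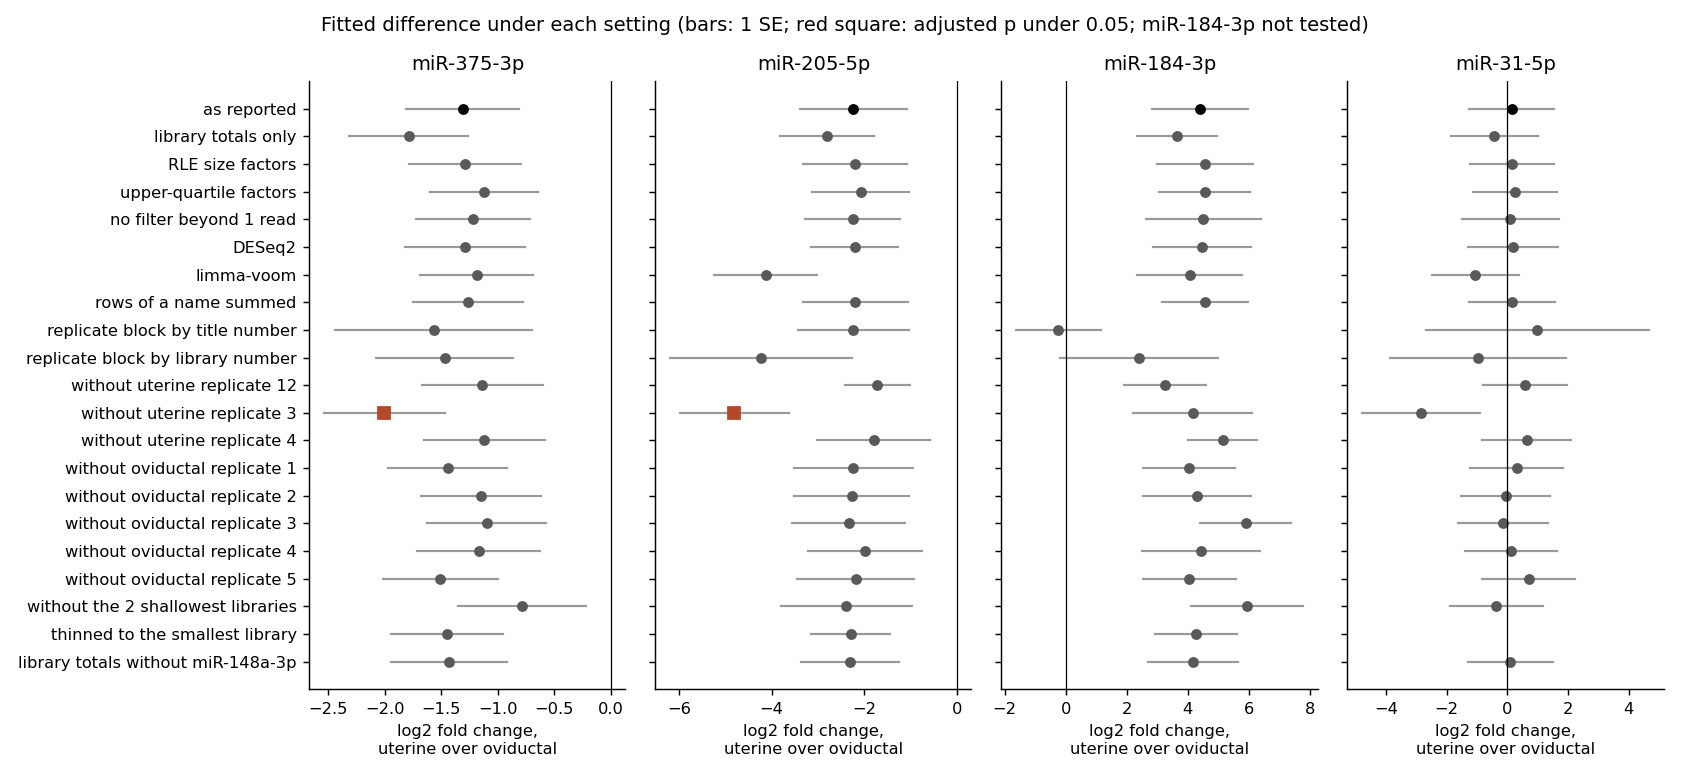
Log2 fold change, uterine over oviductal (horizontal axis, bars of 1 SE), of 4 miRNAs under the reported fit and each alternative (rows), with a red square where the adjusted p was under 0.05. miR-375-3p and miR-205-5p lie below 0 in every row and pass in a single one, without uterine replicate 3, while miR-31-5p falls on both sides of 0. miR-184-3p is shown with no test.

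miR-184-3p followed another order. It was high in 2 of the 3 uterine libraries, with 4666 CPM in replicate 12 and 1813 CPM in replicate 3, and low in uterine replicate 4, with 20.6 CPM, against 9.06, 63.0, 703, 145 and 15.8 CPM in oviductal replicates 1 to 5. Uterine replicate 4 lay inside the oviductal range, and the groups overlapped. Behind these values were 1085, 870 and 6 reads in the uterine libraries, against 4, 3, 30, 37 and 9 reads in the oviductal ones. The exact 95% binomial intervals of uterine replicates 12 and 3 were 4393 to 4951 and 1695 to 1937 CPM. The interval of oviductal replicate 3, the highest of its group, was 474 to 1003 CPM, below both. In uterine replicate 12 miR-184-3p was the 19th most abundant of 160 miRNAs with a read, and in uterine replicate 4 the 215th of 270.

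The highest uterine level of miR-184-3p was 227 times the lowest, a ratio that was the reason for including it. The oviductal levels also ranged widely, over 77.6-fold, though they rested on 3 to 37 reads and the lowest of them on 4. They were known when miR-184 was chosen, so this spread is a description too. On the log2(CPM + 1) scale its uterine range was 7.76, with 12 of 178 miRNAs wider, and its oviductal range 6.13, with 34 wider. The means were 2166 ± 2343 CPM in the 3 uterine libraries and 187 ± 293 CPM in the 5 oviductal ones (SD), and the fitted log2 fold change was 4.39 ± 1.58 (SE). It was between 3.26 and 5.90 when any single library was left out. With a replicate block by title number, which compares only libraries of the same number, it was -0.24. These values describe a row chosen with the contrast known and are no test of it.

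miR-31 was near the limit of detection. The arm miR-31-5p had 1, 55 and 4 reads in uterine replicates 12, 3 and 4, which is 4.30, 115 and 13.7 CPM, against 33, 1, 0, 11 and 81 reads in oviductal replicates 1 to 5, which is 74.7, 21.0, 0, 43.2 and 142 CPM. The groups overlapped throughout, and the highest values were in uterine replicate 3 and oviductal replicate 5. The 0 reads of oviductal replicate 3 allow up to 70.3 CPM by the floor of 3 reads, so most of the other values could not have been told from 0 at that depth. The log2 fold change was 0.14 ± 1.40 (SE, edgeR adjusted p = 0.978), though the mean CPM was lower in uterine vesicles, at 44.2 ± 61.2 (SD, n = 3) against 56.3 ± 55.5 (SD, n = 5) in oviductal ones. With library totals only it was -0.42, so no direction is given. The other arm, miR-31-3p, did not pass the filter. It had 17 reads in uterine replicate 4 and 0 in uterine replicates 12 and 3, against 1 read in each of oviductal replicates 1 and 3 and 0 in the other oviductal libraries. In uterine replicate 4 the 3p arm thus had more reads than the 5p arm (17 against 4), whereas in uterine replicate 3 and in oviductal replicates 1, 4 and 5 the 5p arm had more.

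Together miR-375-3p, miR-205-5p and miR-184-3p held 0.719%, 0.840% and 0.538% of the reads in uterine replicates 12, 3 and 4, against 0.989% to 2.87% in the oviductal libraries. In uterine replicate 12, 64.9% of those reads were miR-184-3p and 35.1% miR-375-3p. In uterine replicate 3 the shares were 66.9% for miR-375-3p, 21.6% for miR-184-3p and 11.5% for miR-205-5p, and in uterine replicate 4 they were 95.3%, 0.383% and 4.34%. In the oviductal libraries miR-375-3p held 68.0% to 89.9%, miR-205-5p 7.66% to 31.9% and miR-184-3p 0.0916% to 2.44%. For each read of miR-205-5p there were 5.79 and 22.0 reads of miR-375-3p in uterine replicates 3 and 4, against 2.13 to 11.7 in the oviductal libraries.

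Of the other epithelial miRNAs, the 2 most abundant differed from each other. On plain totals miR-200c-3p, which keeps cells epithelial by lowering ZEB1 and ZEB2, was at 4287, 22631 and 12869 CPM in uterine replicates 12, 3 and 4, against 33455 to 49781 CPM in the oviductal libraries. Its log2 fold change was -1.13 ± 0.52 (SE, edgeR adjusted p = 0.269). miR-141-3p, of the same family, was at 413, 929 and 1376 CPM in uterine replicates 12, 3 and 4, inside the oviductal range of 351 to 1668 CPM. Its log2 fold change was 0.30 ± 0.62 (SE, edgeR adjusted p = 0.894). A ratio of reads in the same library, chosen after the data were seen, does not depend on the library total. For 100 reads of miR-200c-3p there were 58.8, 24.8 and 39.9 reads of miR-375-3p in uterine replicates 12, 3 and 4, against 15.0, 57.1, 77.2, 42.6 and 16.7 in oviductal replicates 1 to 5. All 3 uterine values lay within the oviductal range. For miR-205-5p there were 0, 4.28 and 1.81 reads per 100 of miR-200c-3p in the uterine replicates, against 4.82, 7.03, 6.58, 10.1 and 7.82 in the oviductal ones. Here the uterine values lay below the oviductal range, uterine replicate 3 by a small margin. How many of all tested miRNAs have such a ratio below the oviductal range was not computed, so no background is given. For miR-184-3p there were 109, 8.01 and 0.160 reads in the uterine replicates, against 0.0182 to 2.10 in the oviductal ones.

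**Figure D3:**
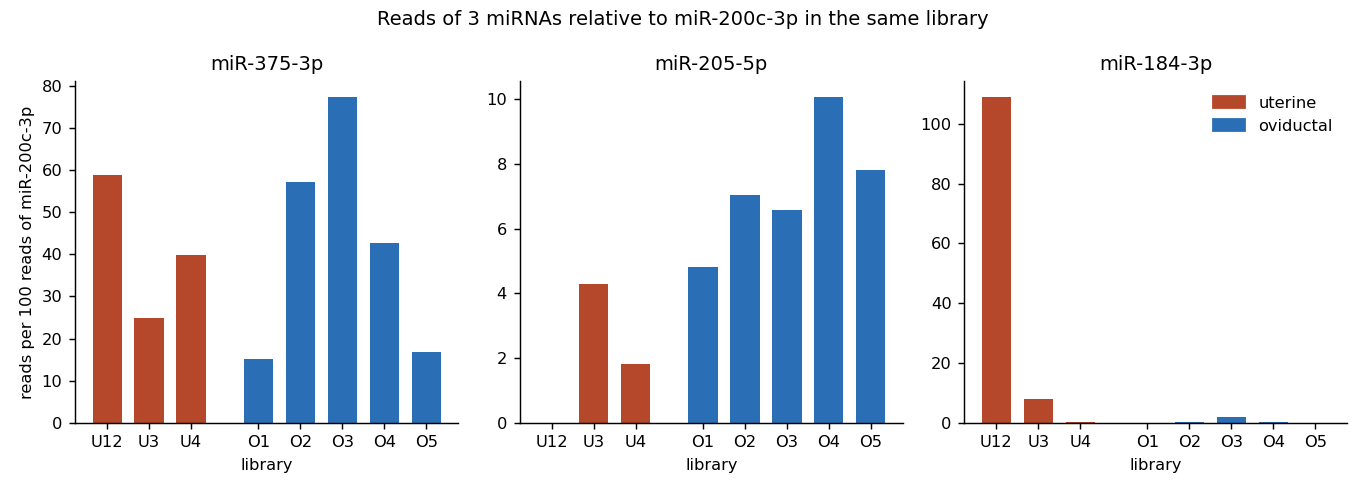
Reads of miR-375-3p, miR-205-5p and miR-184-3p per 100 reads of miR-200c-3p in each library (bars, from 0), with uterine replicates (U) in red and oviductal replicates (O) in blue. The uterine bars lie within the oviductal range of 15.0 to 77.2 for miR-375-3p and below 4.82 for miR-205-5p, and miR-184-3p exceeds 100 in uterine replicate 12 alone.

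Lists of miRNAs of other cell types also differed between the libraries, in part in the order of the levels above. Their shares are of plain library totals and were not computed on the TMM scale or without miR-148a-3p. The TMM factor, by which library totals are multiplied, was 0.666 in uterine replicate 3. It was 0.751 and 1.21 in uterine replicates 12 and 4, and 0.918 to 1.29 in the oviductal libraries. On that scale the shares of uterine replicate 3 would be higher, and gaps below the oviductal range may not hold. Of the miR-200/miR-141 epithelial list, 2 of 5 families had rows, and the 4 rows held 0.470%, 2.36% and 1.44% of the reads in uterine replicates 12, 3 and 4, against 3.39% to 5.09% in the oviductal libraries. The list of multiciliated epithelium (miR-34b, miR-34c and miR-449, with 6 of 8 rows detected and miR-449a-3p and miR-449b-3p at 0) held 0.495%, 3.38% and 1.33% in the same uterine replicates, against 2.77% to 6.12% in the oviductal libraries. Uterine replicate 3 was thus the highest of its group for both lists, as it was for miR-205-5p and miR-375-3p, and replicate 12 the lowest for all 4. The miR-183/miR-96/miR-182 list (5 of 6 rows detected, miR-96-3p at 0) held 0.123%, 0.197% and 0.238% in uterine replicates 12, 3 and 4, against 0.321% to 1.37% in the oviductal libraries, and was highest of the uterine group in replicate 4. The neural and endocrine list of miR-7, miR-9 and miR-129 (7 of 7 rows detected) held 0.549%, 1.07% and 0.284%, against 1.40% to 2.40%, and was lowest of the uterine group in replicate 4. Among the oviductal libraries the miR-200/miR-141 list was lowest in replicate 3, where miR-375-3p was highest.

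In the same fit none of the tested miRNAs of these 4 lists was called. Of 3 tested in the epithelial list 1 was positive and 2 were negative, of 5 in the multiciliated list 1 and 4, of 3 in the miR-183 list 0 and 3, and of 5 in the neural list 0 and 5. The median log2 fold changes were -0.16, -0.18, -1.49 and -1.51, beside -0.02 for all 178 tested miRNAs, of which 91 were negative. Without uterine replicate 3 the called lower were 1, 3, 2 and 2 of these lists, at a background of 7.5%. The sign of the first 2 medians was not stable. The epithelial median was positive in 5 of 20 alternatives, at 0.31 without uterine replicate 12 and 0.18 without oviductal replicate 5, and the multiciliated median was -1.92 without uterine replicate 3 and 0.14 without uterine replicate 12. The miR-183 and neural medians were negative in every alternative run.

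The muscle and blood lists had positive medians. The muscle list (6 of 10 rows detected, with miR-1-5p, miR-133a-5p, miR-133b-3p and miR-133b-5p at 0) held 2.54%, 0.560% and 4.69% of reads in uterine replicates 12, 3 and 4, against 0.381% to 0.471% in the oviductal libraries. Of 4 tested members 1, miR-143-3p of smooth muscle, was called higher, where 3 of all 178 miRNAs (1.69%) were. Its log2 fold change was 2.81 ± 0.48 (SE, edgeR adjusted p = 0.00261). It was at 22297, 4735 and 44325 CPM in uterine replicates 12, 3 and 4, against 3397 to 4371 CPM in the oviductal libraries. The 4 tested members had a median of 2.33. The muscle share was lowest of the uterine group in replicate 3, where miR-205-5p was highest of the group. The erythrocyte list (4 of 5 rows detected, miR-486-3p at 0) held 0.362%, 0.123% and 0.768%, against 0.0922% to 0.288%. Its 2 tested members were positive, with a median of 1.30. The leukocyte list (6 of 10 rows detected, with miR-142-5p, miR-146a-3p, miR-150-3p and miR-155-3p at 0) held 0.144%, 0.0786% and 0.367%, against 0.102% to 0.245%. Its 4 tested members were positive, with a median of 1.82. The most abundant of them, miR-155-5p, was at 0.03 ± 0.56 (SE, edgeR adjusted p = 0.986). No tested miRNA of the erythrocyte or leukocyte list was called. The liver miRNA miR-122-5p (miR-122-3p was at 0) took 0.306%, 0.0579% and 0.0299%, against 0.00615% to 0.0588%. On plain totals it stood above the oviductal range in uterine replicate 12 and inside it in uterine replicates 3 and 4. In uterine replicate 3 the margin was small, at 579 CPM against 588 CPM from 28 reads in oviductal replicate 2. TMM-scaled values of miR-122-5p are not given. Its log2 fold change was 2.79 ± 0.87 (SE, edgeR adjusted p = 0.107), and 1.02 without uterine replicate 12. The part of these lists in the values of miR-375, miR-205 and miR-184 was not tested. In whole vesicle preparations, fewer vesicles from a cell type and less of a miRNA in each vesicle cannot be told apart.

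**Figure D4:**
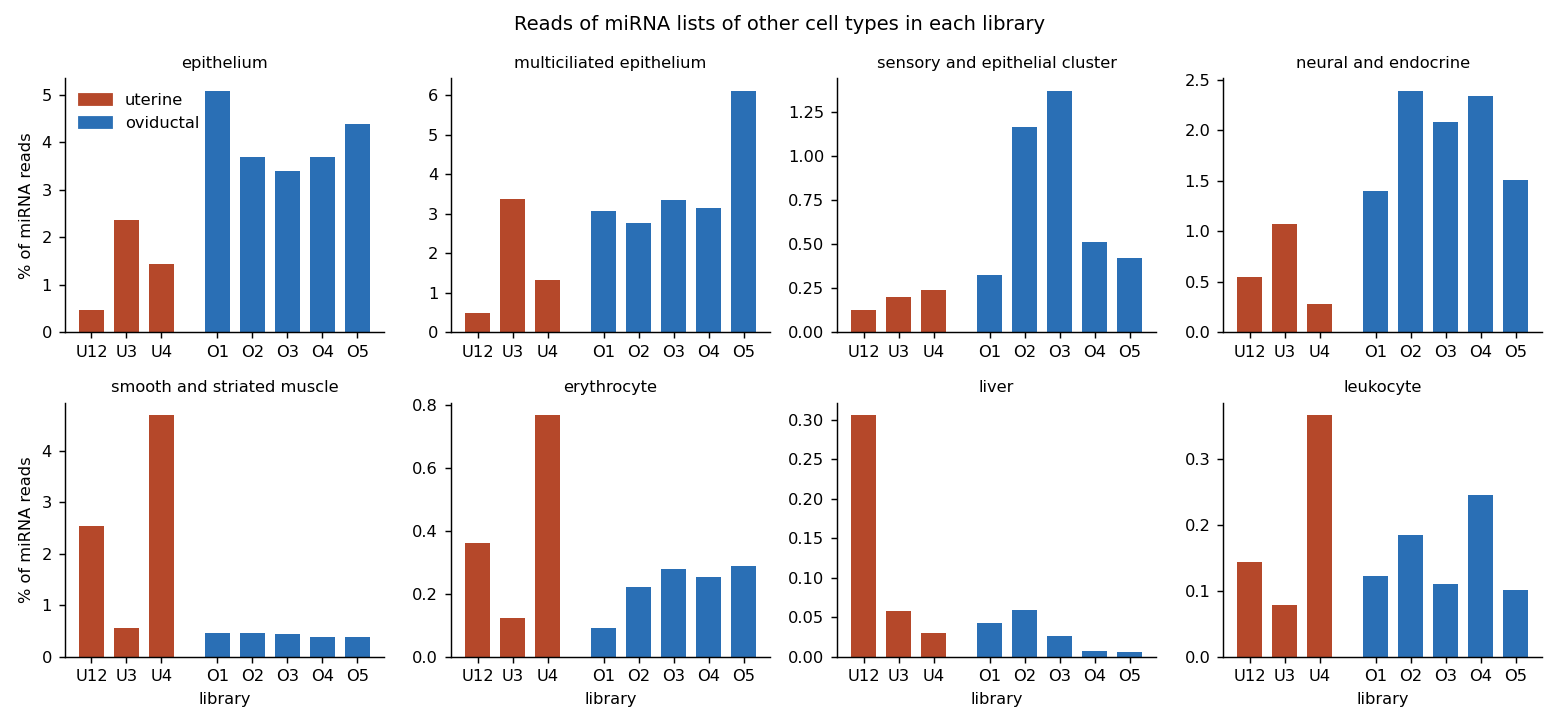
Percent of miRNA reads taken by 8 lists of miRNAs of other cell types (1 panel each, bars from 0) in each library, with uterine replicates (U) in red and oviductal replicates (O) in blue. The epithelial list is at 0.470% in uterine replicate 12 and at least 3.39% in the oviductal libraries, and the muscle list is at 4.69% in uterine replicate 4 and at most 0.471% in the oviductal libraries. Shares are of plain library totals.

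The miRNAs with the most similar pattern over the 8 libraries were sought among the 174 others that passed the filter, by Pearson's r of log2(CPM + 1). The points share the library, its depth and its tissue, so these values are descriptions. For miR-375-3p they were miR-182-5p (r = 0.967, Spearman's rho = 0.976), miR-183-5p (0.932 and 0.952) and miR-216b-5p (0.913 and 0.833). Both miR-182-5p and miR-183-5p come from 1 precursor cluster of sensory and epithelial cells. miR-182-5p was at 383, 1075 and 1191 CPM in uterine replicates 12, 3 and 4, against 1467 to 6771 CPM in the oviductal libraries, and miR-183-5p at 804, 829 and 1177 CPM, against 1300.0 to 6560 CPM. Among the 5 oviductal libraries alone r was 0.920, 0.915 and 0.967, and without oviductal replicate 3 and uterine replicate 12, the 2 farthest from the median, 0.915, 0.907 and 0.799. The miRNAs were picked on these same libraries, so this is no separate support. In the shallow oviductal replicates 2 and 3, miR-182-5p (4874 and 6771 CPM) and miR-183-5p (5883 and 6560 CPM) were highest, as was miR-375-3p. The part of depth in the likeness was not tested.

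For miR-205-5p the closest were miR-760-3p (r = 0.998, rho = 0.952), miR-9-5p (0.981 and 0.667) and miR-200c-3p (0.967 and 0.786). The values of miR-9-5p and miR-200c-3p rest largely on uterine replicates 12 and 4, and that of miR-760-3p less so. Without those 2 libraries r was 0.930 for miR-760-3p, 0.630 for miR-9-5p and 0.769 for miR-200c-3p. Among the oviductal libraries alone it was 0.62, -0.29 and -0.01, in the same order. miR-760-3p was at 0, 465 and 144 CPM in uterine replicates 12, 3 and 4, against 799 to 1297 CPM in the oviductal libraries, with the uterine replicates in the same order as for miR-205-5p. miR-9-5p was at 0, 834 and 563 CPM, against 1203 to 2530 CPM.

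No miRNA followed miR-184-3p as closely. The closest were miR-206-3p of skeletal muscle (r = 0.699, rho = 0.524), miR-1-3p of striated and smooth muscle (0.657 and 0.719) and miR-148a-3p (0.611 and 0.357). Without uterine replicates 12 and 3 the last 2 fell to r = 0.192 and -0.52, and miR-206-3p was at 0.606. miR-1-3p was at 2322, 754 and 120 CPM in uterine replicates 12, 3 and 4, in the order of miR-184-3p, against 0 to 93.7 CPM in the oviductal libraries. Among themselves, miR-375-3p and miR-205-5p had r = 0.742 and rho = 0.643, miR-375-3p and miR-184-3p r = -0.20 and rho = -0.19, and miR-205-5p and miR-184-3p r = -0.58 and rho = -0.48. The values with miR-184-3p include the uneven uterine levels for which it was chosen.

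**Figure D5:**
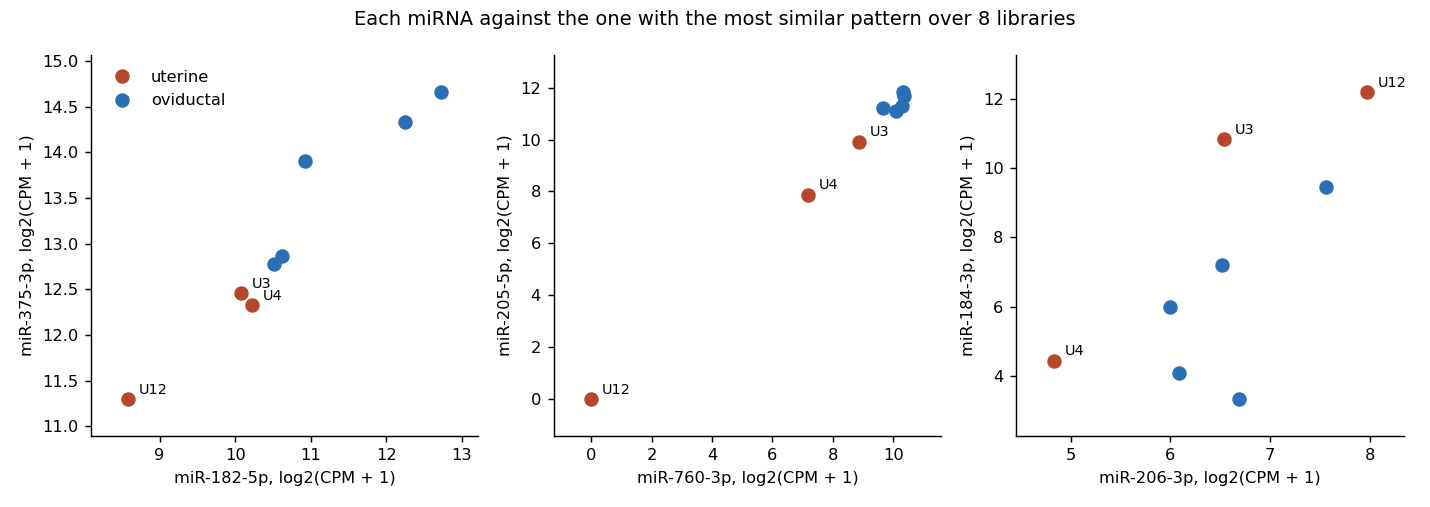
miR-375-3p against miR-182-5p, miR-205-5p against miR-760-3p and miR-184-3p against miR-206-3p, as log2(CPM + 1) in each of the 8 libraries (points, uterine in red with their replicate number, oviductal in blue). The first pair lies along a line over all libraries (r = 0.967), the second along a line drawn out by uterine replicates 12 and 4 (r = 0.998), and the third is scattered (r = 0.699).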

How the data were processed

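Small RNA was sequenced from vesicles of uterine and oviductal flushes. Per the labels' protocols, oviducts were flushed with 1 mL and uteri with 2.2 mL, cells and debris were removed by centrifugation (300 g, 7 min, then 10000 g, 30 min) and filtration (0.22 µm), and vesicles were isolated by size exclusion. The deposited table gives the authors' whole read counts, 1 row for each pair of mature miRNA and precursor. It also gives RPM, which the authors' table scales to a column sum of 1000000 (each equalled the count over its column sum within 0.005). The submitters' processing notes name the build OryCun2.0 and the tool FastQC, and neither they nor the labels name an aligner or counting program. The members and lists were chosen with earlier results of these data known. Of 615 rows, each of the 579 names kept its row of highest count (354 with a read), and CPM were computed over these. Counts were compared with edgeR 4.0.16 under R 4.3.3 (quasi-likelihood test, robust shrinkage, TMM, filterByExpr, Benjamini-Hochberg over 178 miRNAs, threshold 0.05). The procedure was tested on simulated data. SE were taken from the fold change and its F statistic. Likeness was computed on log2(CPM + 1). The miRNAs named were all rows of the rule, the 3 closest in pattern to each of miR-375-3p, miR-205-5p and miR-184-3p, and members of the marker lists by mean CPM, of which the text names those it turns on. The alternatives were other scalings and filters, DESeq2 1.42.0 and limma-voom (limma 3.58.1), summed rows, replicate blocks, thinning to the smallest library and the removal of libraries.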

Additional observations from a re-analysis of the deposited data

Results flagged for a closer look

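Among the 5 oviductal libraries, miR-184-3p stood apart in replicate 3, at 703 CPM from 30 reads, with the gap to the next library making up 0.804 of the group's range. Another gap, in miR-31-3p, also lay at oviductal replicate 3, at 0.903 of the range, but there the value of 23.4 CPM was a single read in the shallowest library. The reads of the multiciliated list stood apart in oviductal replicate 5, at 6.12% of reads, with a gap of 0.826 of the range. For normally distributed values about 1 in 20 groups would be marked in this way by chance. The rate for values like these was not measured.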

How the results depend on the processing

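miR-375-3p and miR-205-5p had negative log2 fold changes in all 20 alternatives each, of which 1 passed the threshold, without uterine replicate 3. Leaving out 1 library at a time gave -2.004 to -1.10 and -4.80 to -1.72. For miR-31-5p it gave -2.85 to 0.70, and the sign also turned with library totals only (-0.42), limma-voom (-1.06), the replicate block by library number (-0.97) and without the 2 shallowest libraries (-0.36). The cause was not tested, and thinning left miR-31-5p under the filter. The fitted value of miR-184-3p was 4.39, and -0.24 with a replicate block by title number, which compares only uterine replicates 3 and 4 with the oviductal replicates of the same number. The numbers are not known to pair pools, and pools of the same library number 1, 3 and 4 deviated from their group means with r of -0.13, -0.12 and -0.11. Under the replicate block by title number miR-375-3p was at -1.57 and miR-205-5p at -2.24 (edgeR adjusted p = 0.998 for both). The count of 3 called miRNAs was 1 with library totals only and with limma-voom, 6 with upper-quartile factors, 13 with no filter, 11 with DESeq2, 7 with rows of a name summed and with totals that leave out miR-148a-3p (an alternative added after the data were seen), 0 with either replicate block and without the 2 shallowest libraries, and 1 to 27 with 1 library left out. In the edgeR fits with a count of 0, 8, 11 and 20 miRNAs had an unadjusted p under 0.05. Depth limits miR-31, whose values rest on 0 to 81 reads, and the oviductal values of miR-184-3p, which rest on 3 to 37.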
